A study of Mus musculus with 19 samples.

Results

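Heme synthesis genes and P450 reductase were followed in the livers of male Swiss-Webster mice, through every probe of an Illumina MouseRef-8 array that is annotated with Alas1, Alas2, Alad, Urod, Cpox, Ppox, Fech or Por. Of these 8 genes, 7 have a named probe, with 12 probes between them, out of 16593 named genes and 25697 probes in all. Por, whose product passes electrons from NADPH to the microsomal cytochrome P450 enzymes, was not analysed here because none of the named probes is annotated to it. The mice were 7 weeks old, and hepatic RNA was taken 4 h after treatment. There were 6 that had received DMSO only, 8 that had received IDFP (10 mg/kg), and 5 in which AM251 (10 mg/kg) preceded the same dose of IDFP. All mice had gone without food from 4 h before the injections, which were intraperitoneal, and the agents were dissolved in DMSO. IDFP is an organophosphorus inhibitor of MAGL and FAAH, the enzymes that degrade endocannabinoids, and AM251 is an antagonist of the cannabinoid receptor CB1. No group analysed here received AM251 without IDFP, so that AM251/IDFP vs. DMSO sets both agents together against vehicle. Every mouse had its own array, on which the brightness of beads in intensity units measures a transcript.

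Heme is made in a pathway that starts and ends in mitochondria. Aminolevulinate synthase joins glycine to succinyl-CoA in the step that limits the rate, through Alas1 in liver and most other tissues and through Alas2 in developing red cells. Aminolevulinate is then turned into porphyrin precursors in the cytosol by Alad and Urod, among others. Cpox, Ppox and Fech carry out the last steps, and Fech inserts the iron. The liver is known for using much of its heme in P450 enzymes. Hepatic Alas1 is known to be held down by heme, and to be raised in fasting through the coactivator PGC-1alpha and by drugs that activate the nuclear receptor CAR.

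The stretches of promoter below are shown because the forms of aminolevulinate synthase carry different motifs near their start sites, and the cytosolic enzymes Alad and Urod share another. They are from RefSeq (GRCm38.p6), in windows of 250 bases before to 50 bases after a start, and capitals mark the motif.
Alas1, chr9:106247907-106247936, minus strand: ccgcacccaagGCGCATGcgcggcggtcac
Alas2, chrX:150547319-150547348, plus strand: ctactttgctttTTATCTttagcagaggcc
Alad, chr4:62520151-62520180, minus strand: gctccgaatgccCACGTGgaccccctcggg
Alad, chr4:62519920-62519949, minus strand: ccgccccgccccCACGTGggcttgcgcttt
Urod, chr4:116994445-116994474, minus strand: cactggatcggtCACGTGgttctcaatatg
The capitals of Alas1 are GCGCATG, a core of the sites to which the factor NRF1 is known to bind, and its reverse complement CATGCGC overlaps it there. It starts at position 30 from an annotated start of Alas1 and at position -195 from another, and 3.91% of all 32851 windows hold it on either strand. The capitals of Alas2 are the reverse complement of AGATAA, a site of the erythroid GATA factors, at position -86. On either strand, 11.2% of windows hold AGATAA, and Cpox holds it too, at position 5. The capitals of Alad and Urod are the E-box CACGTG, at positions -105 and -28 from different starts of Alad and at -49 in Urod, which 7.15% of windows hold. Of the other motifs searched, the nuclear receptor site AGGTCA (16.3% of windows) was in the Alas2 window at position -245, and the FOXO site GTAAACA (3.65%) was in none of the 8 windows of 6 member genes searched. Both strands were read. Different motifs did not overlap in these windows, and a match is a description of the letters only.

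Signals are given after background correction on the linear scale. Of the 12 probes, 11 were detected, the exception being a Cpox probe that was detected on none of the 19 arrays. All 7 genes could therefore be tested, among 9352 genes. Of the hepatocyte markers with a named probe, 17 of 17 were detected, beside 9352 of all 16593 named genes. Among them, Trf, Ahsg and Apoa1 were bright (means of 31398, 29481 and 28436 in DMSO mice), whereas Alb, Fgb and Tat were dim (437, 84.8 and 74.7). Between 8691 and 8781 of the tested genes were above the detection threshold on an array. Arrays correlated with the rest of their own group at a mean r of 0.975 or more, with the lowest value in AM251/IDFP mouse 3, as the labels number it. That mouse also had the highest summed signal of the 7 tested erythroid markers (46991, against 17620 to 35819 in the other groups) and of the 5 tested neutrophil markers (6872, against 610 to 1618 in the other groups). The differences of Alas1, Alas2, Alad and Fech from DMSO are given with and without this mouse.

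With IDFP alone, 0 of the 7 genes passed the test, against 16.3% of all tested genes (limma, Benjamini-Hochberg adjustment, 0.05 as the threshold). At an unadjusted p under 0.05 there were 2, Alas2 and Urod, against 30.8% of all genes. With AM251 before IDFP, Alad was lower than with IDFP alone (1 of 7, against 10.8% of all genes). Compared with DMSO, AM251/IDFP-treated mice had more Alas1 and less Alad (2 of 7, against 9.86% of all genes). Without adjustment, p was under 0.05 for 2 members where AM251 was added to IDFP (Alas1 and Alad, against 24% of all genes) and for 4 where both agents were set against vehicle (Alas1, Alas2, Alad and Urod, against 24.6%). With 7 genes, the share called stood below the background for IDFP alone and rested on 1 or 2 genes in the other comparisons. The median log2 difference of the 7 genes was 0.19 with IDFP alone, -0.01 where AM251 was added to it and 0.18 with both agents against vehicle. Over all tested genes it was 0.00, -0.01 and -0.01.

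**Figure D1:**
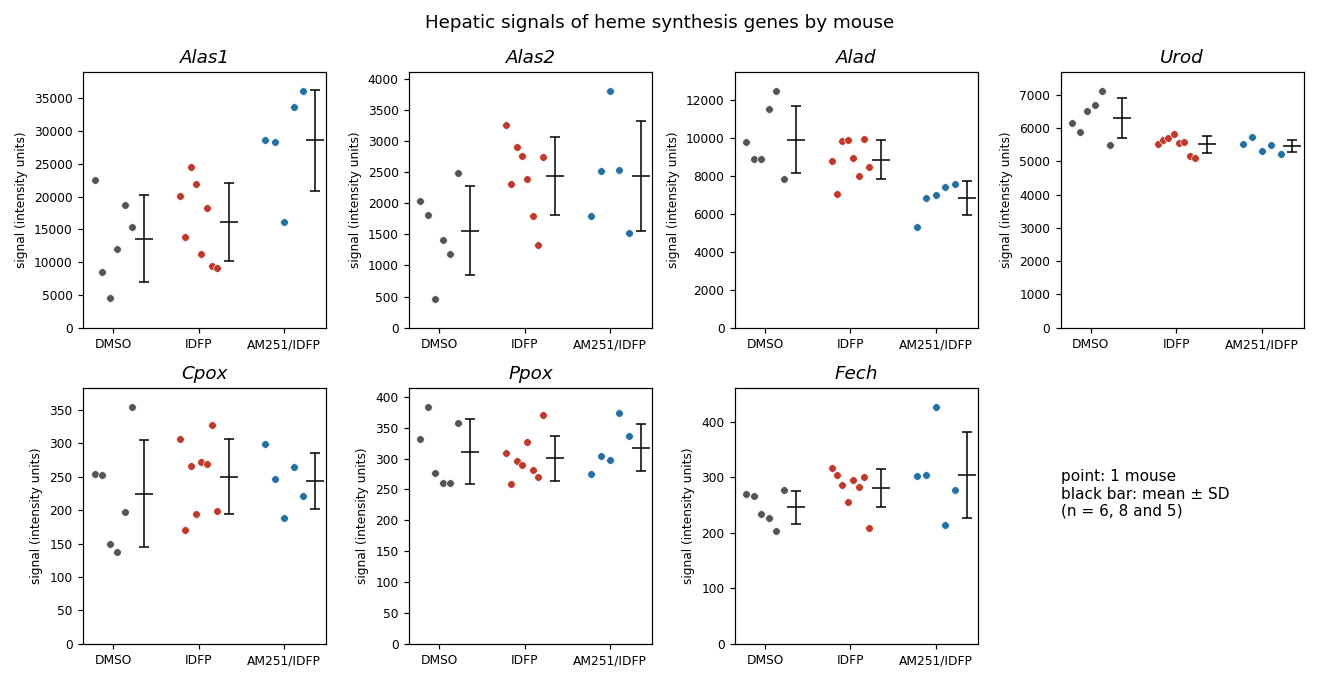
Signal of each measured heme synthesis gene in intensity units (vertical axes, from 0) by treatment group; each point is 1 mouse and the black bars are the mean ± SD of 6, 8 and 5 mice. All 5 AM251/IDFP-treated mice lie below the lowest DMSO mouse for Alad, and 4 of them lie above every other mouse for Alas1.

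Alas1, the rate-limiting enzyme, varied widely among vehicle-treated mice. Its signal was 22511, 8524, 4476, 12038, 18735 and 15293 in the 6 DMSO mice, with a mean of 13596 ± 6635 (SD, n = 6). In the 8 IDFP-treated mice it ran from 9097 to 24532 with a median of 16085 (mean 16072 ± 5949, SD, n = 8). These groups overlapped along most of their range.
In the 5 AM251/IDFP-treated mice, the Alas1 signal was 28606, 28394, 16147, 33685 and 36170, with a mean of 28600 ± 7718 (SD, n = 5). The lowest of these belongs to mouse 3, and the other 4 were above every DMSO- and IDFP-treated mouse. Alas1 was 2.30-fold higher than in DMSO mice (95% interval 1.39 to 3.81, log2 difference 1.20 ± 0.35 SE, adjusted p = 0.0339). Over all 462 splits of these arrays, the two-sided exact permutation test gave p = 0.0173, unadjusted. Against IDFP alone, Alas1 was 1.83-fold higher (95% interval 1.14 to 2.94), which did not pass the adjustment (adjusted p = 0.0980, unadjusted exact permutation p = 0.0171). For IDFP vs. DMSO the difference was 0.33 ± 0.31 on the log2 scale (95% interval -0.32 to 0.98, adjusted p = 0.520), and the interval reaches a 1.97-fold higher level. This value was 0.047 without DMSO mouse 3 (adjusted p = 0.937).

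The Alas1 call was not kept in every fit with an array left out. Without AM251/IDFP mouse 3 the log2 difference from DMSO was 1.40 (adjusted p = 0.0303), and without DMSO mouse 3, the dimmest, it was 0.92 (adjusted p = 0.0806). In all, the call was lost in 7 of 19 fits with an array left out, namely those without DMSO mouse 2, 3 or 4 or AM251/IDFP mouse 1, 2, 4 or 5. The deposited Alas1 signal reached 36128 where the brightest probe of the whole table reached 37432, so that little room was left above the highest mice.

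Alas2, the erythroid form, was detected in every liver. The signal was 2032, 1821, 462, 1406, 1177 and 2484 in DMSO mice (mean 1563 ± 710, SD, n = 6). It was 1337 to 3260 with a median of 2567 in IDFP-treated mice (mean 2440 ± 626, SD, n = 8). The ranges overlapped, although 4 of 8 IDFP-treated mice were above the highest DMSO mouse.
AM251/IDFP-treated mice had Alas2 signals of 1799, 2529, 3814, 2540 and 1522 (mean 2441 ± 889, SD, n = 5), and the highest was again in mouse 3. The log2 difference was 0.77 ± 0.30 SE for IDFP vs. DMSO (95% interval 0.15 to 1.39, adjusted p = 0.0800) and 0.74 ± 0.33 for AM251/IDFP vs. DMSO (adjusted p = 0.168). Neither passed the adjustment. Between the IDFP groups with and without AM251 it was -0.02 (95% interval -0.68 to 0.63, adjusted p = 0.977). Without DMSO mouse 3, the value of Alas2 for IDFP vs. DMSO was 0.45 (adjusted p = 0.208), whereas without DMSO mouse 6 or IDFP mouse 7 it was 0.94 and 0.89 and passed (adjusted p = 0.0342 and 0.0463). Without AM251/IDFP mouse 3, the Alas2 difference of AM251/IDFP from DMSO was 0.57 (adjusted p = 0.355).

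Markers of red cells were set beside Alas2, as it is the form that developing red cells use. Of 18 listed erythroid markers, 7 were tested and 0 were called in any comparison by limma, and Gata1, Epb42, Rhd and Tspo2 were not detected. Their summed signal was 20233 to 35819 in DMSO, 17620 to 29858 in IDFP and 19548 to 46991 in AM251/IDFP mice (up to 29980 without mouse 3), so that the groups overlapped. Most of this sum is the alpha globin gene Hba-a1, at 18078 to 30091, 15479 to 26285 and 17679 to 32829 in the same order. DMSO mouse 3 had the lowest Alas2 signal of all 19 mice but the highest erythroid sum of its group, whereas AM251/IDFP mouse 3 had the highest of both. The part of red cells in the Alas2 signal was not tested, and in whole liver fewer cells of a type and less RNA per cell cannot be told apart.

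**Figure D2:**
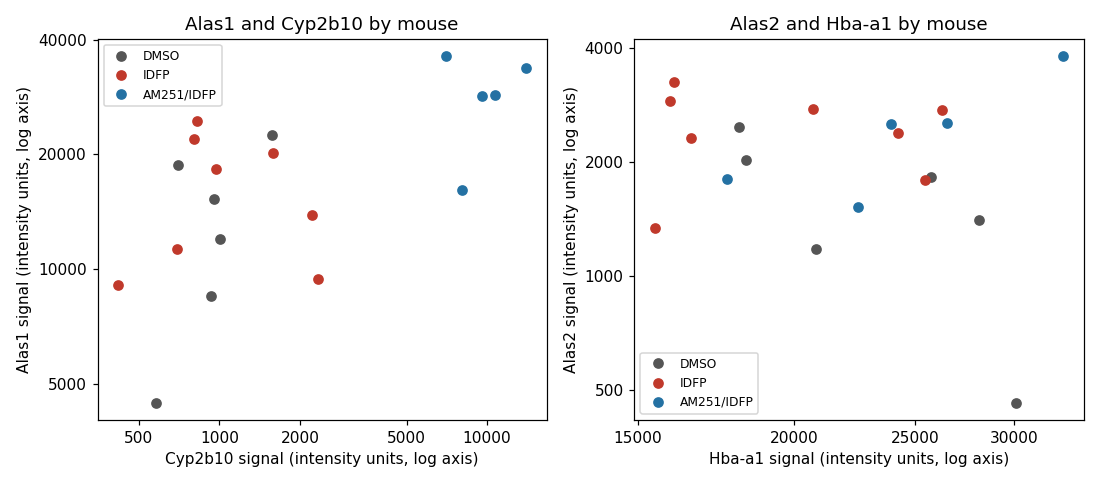
Signal of Alas1 against Cyp2b10 (left) and of Alas2 against the alpha globin gene Hba-a1 (right) in each of the 19 mice, in intensity units on log axes, coloured by treatment group. The AM251/IDFP-treated mice stand apart on Cyp2b10, from 7025 to 13997. Between the log2 signals of Alas2 and Hba-a1, r was -0.189 over all 19 mice. Within DMSO, IDFP and AM251/IDFP mice it was -0.713, 0.029 and 0.836, as a description.

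Alad, which condenses aminolevulinate into porphobilinogen in the cytosol, moved the other way from Alas1. The Alad signal was 9778, 8896, 8896, 11522, 12488 and 7846 in DMSO mice (mean 9904 ± 1765, SD, n = 6). It was 7025 to 9931 with a median of 8871 in IDFP-treated mice (mean 8864 ± 1035, SD, n = 8). All but 1 of the IDFP-treated mice lay within the DMSO range.
In AM251/IDFP-treated mice the Alad signals were 5300, 6852, 6993, 7435 and 7563 (mean 6829 ± 904, SD, n = 5). All 5 were below the lowest DMSO mouse, an absence of overlap that 4.88% of all tested genes share for this comparison. Alad was 0.693-fold of its DMSO level (95% interval 0.578 to 0.831, log2 difference -0.53 ± 0.13 SE, adjusted p = 0.0138, unadjusted exact permutation p = 0.00433). This call was kept in 19 of 19 fits with an array left out, with adjusted p up to 0.0355. Against IDFP alone Alad was at 0.769-fold (95% interval 0.648 to 0.913, log2 difference -0.38 ± 0.12 SE, adjusted p = 0.0440, unadjusted exact permutation p = 0.00466). In this comparison 3 of 5 mice were below the lowest IDFP mouse. For IDFP vs. DMSO the Alad difference was -0.15 ± 0.11 (95% interval -0.38 to 0.08, adjusted p = 0.396).
The call of Alad against IDFP alone was lost in 10 of 19 fits with an array left out, those without DMSO mouse 1, IDFP mouse 1, 3, 4, 5, 7 or 8, or AM251/IDFP mouse 1, 2 or 3, with adjusted p up to 0.148. AM251/IDFP mouse 1 was the lowest of all for Alad, and without it the log2 difference was -0.29 against IDFP and -0.44 against DMSO (adjusted p = 0.148 and 0.0327). Without mouse 3 these differences were -0.39 and -0.54 (adjusted p = 0.0772 and 0.0287).

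Urod, the decarboxylase that makes coproporphyrinogen, varied little between mice. Its signal was 6141, 5878, 6512, 6693, 7122 and 5487 in DMSO mice (mean 6306 ± 590, SD, n = 6). It was 5098 to 5831 with a median of 5558 in IDFP-treated mice (mean 5511 ± 251, SD, n = 8), and 5534, 5719, 5316, 5499 and 5233 in AM251/IDFP-treated mice (mean 5460 ± 191, SD, n = 5). All 8 IDFP-treated and all 5 AM251/IDFP-treated mice were below the DMSO mean, but only 2 of each group were below the lowest DMSO mouse.
The difference of Urod was -0.19 ± 0.07 on the log2 scale for IDFP vs. DMSO (0.876-fold, adjusted p = 0.0590) and -0.20 ± 0.08 for AM251/IDFP vs. DMSO (0.869-fold, adjusted p = 0.0948). Neither passed, although both did without DMSO mouse 6, the dimmest for Urod (-0.23 and -0.24, adjusted p = 0.0228 and 0.0387). The unadjusted exact permutation p was 0.00433 and 0.0216. Between both IDFP groups Urod differed by -0.01 (95% interval -0.16 to 0.14). Uros, the enzyme just before Urod and no member of the set, had log2 differences of -0.33 for IDFP vs. DMSO (adjusted p = 0.0588), 0.08 for AM251/IDFP vs. IDFP and -0.25 for AM251/IDFP vs. DMSO (adjusted p = 0.252), and passed in none.

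Cpox, Ppox and Fech, the mitochondrial enzymes that end the pathway, passed in no comparison. The Cpox signal was 138 to 354 in DMSO mice (mean 224 ± 80.3, SD, n = 6), 170 to 327 in IDFP mice (mean 250 ± 56.4, SD, n = 8) and 188 to 298 in AM251/IDFP mice (mean 244 ± 42.1, SD, n = 5). Its groups covered nearly the same range, and the log2 differences were 0.20 with IDFP alone, -0.02 where AM251 was added to it and 0.18 with both agents against vehicle.
Ppox, which makes protoporphyrin, had signals of 260 to 384 in DMSO mice (mean 312 ± 53.2, SD, n = 6), 259 to 371 in IDFP mice (mean 300.2 ± 35.8, SD, n = 8) and 275 to 375 in AM251/IDFP mice (mean 318 ± 38.7, SD, n = 5). In the same order, the Ppox differences were -0.04, 0.08 and 0.04, and the widest interval, for AM251/IDFP vs. DMSO, ran from -0.21 to 0.29.
Fech, which inserts iron into protoporphyrin, had signals of 271, 266, 234, 227, 204 and 277 in DMSO mice (mean 246 ± 29.4, SD, n = 6). In IDFP mice it was 209 to 316 with a median of 292 (mean 282 ± 34.4, SD, n = 8). In AM251/IDFP mice it was 302, 304, 427, 214 and 278 (mean 305 ± 77.4, SD, n = 5). Of the IDFP-treated mice, 6 of 8 were above the highest DMSO mouse, as were 4 of 5 AM251/IDFP-treated mice.
The log2 difference of Fech was 0.19 ± 0.13 for IDFP vs. DMSO (adjusted p = 0.322), 0.09 ± 0.13 for AM251/IDFP vs. IDFP (adjusted p = 0.741) and 0.28 ± 0.14 for AM251/IDFP vs. DMSO (95% interval -0.01 to 0.57, adjusted p = 0.222). The highest Fech signal was in AM251/IDFP mouse 3, without which the latter difference was 0.15 (adjusted p = 0.538). These 3 genes are dim, and the constant that the background correction adds makes fold changes of dim genes smaller.
Further probes of the 3 genes passed in no comparison either. A dimmer Cpox probe gave 0.04, -0.21 and -0.17 for the comparisons in the same order, the last with the opposite sign from the brighter probe. The other Ppox probe stayed between -0.01 and 0.01. The other Fech probes gave 0.29, -0.08 and 0.21, and 0.04, 0.20 and 0.24.

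**Figure D3:**
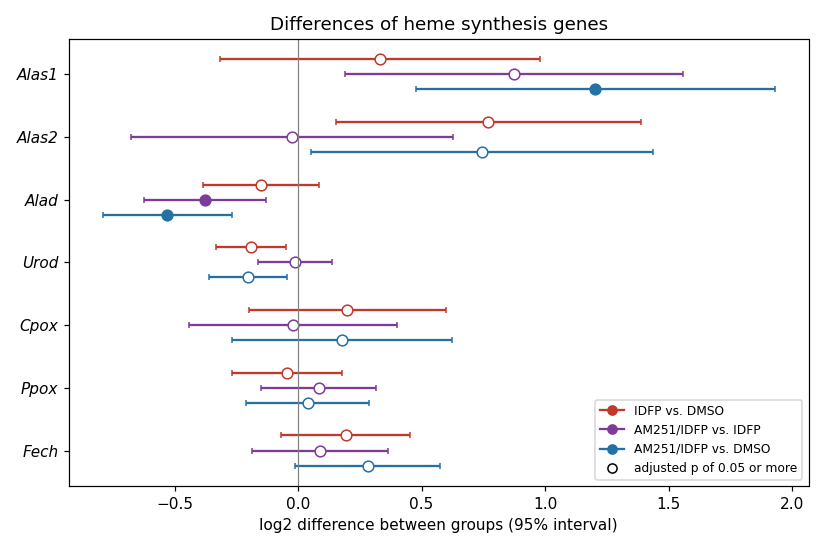
Log2 difference of each gene between groups (points, filled where the adjusted p is under 0.05) with its 95% interval, in the 3 comparisons named in the legend. Only Alas1 (1.20) and Alad (-0.53 and -0.38) have filled points, and the intervals of Alas1 and Alas2 are the widest.

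P450 enzymes are the main users of hepatic heme, and those raised through the nuclear receptors CAR and PXR were counted beside Alas1. Of 13 tested genes of this list, 0 were called for IDFP vs. DMSO by limma, while 2 rose for AM251/IDFP vs. IDFP and 1 rose for AM251/IDFP vs. DMSO. Over all tested genes, 16.3%, 10.8% and 9.86% were called in these comparisons, the shares beside which the counts of this list and those below are to be read. Cyp2b10, the P450 that CAR is best known to raise, was 582 to 1579 in DMSO, 418 to 2326 in IDFP and 7025 to 13997 in AM251/IDFP mice. Its groups did not overlap with AM251, and the difference from DMSO was 10.5-fold (log2 difference 3.39, adjusted p = 4.54e-05). Cyp3a13 rose 1.87-fold over IDFP alone (adjusted p = 0.0419), a call lost in 9 of 19 fits with an array left out (adjusted p up to 0.0924). The median log2 difference of the list was -0.04, -0.04 and 0.12 for the comparisons in the order above. Of 22 other heme proteins tested, Cyp2f2, Suox and Cbs rose with IDFP (log2 differences 0.42, 0.40 and 0.55), Cyp4v3 fell by 0.49 for AM251/IDFP vs. IDFP, and 0 were called for AM251/IDFP vs. DMSO. With an array left out, these calls were lost in 13, 9, 2 and 5 of 19 fits, with adjusted p up to 0.128, 0.106, 0.0711 and 0.116. Among 9 tested electron donors and partners of P450 enzymes, the group to which Por belongs by function, 0 were called for IDFP vs. DMSO or for AM251/IDFP vs. IDFP, and Cyb5r1 fell by 0.44 for AM251/IDFP vs. DMSO, a call lost in 15 of 19 fits (adjusted p up to 0.118).

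A list of 15 tested genes was taken as possible regulators of Alas1, and it was chosen with earlier results of these data known. For IDFP vs. DMSO, 4 rose and 3 fell, although Alas1 itself was not called. The coactivators Ppargc1a and Ppargc1b rose by 0.90 and 2.31 on the log2 scale (adjusted p = 0.00480 and 1.26e-05), and the heme-binding clock repressor Nr1d1 rose by 1.86 (adjusted p = 1.28e-06). Foxo1 rose by 0.44 (adjusted p = 0.0352), a call lost in 7 of 19 fits with adjusted p up to 0.0999. The bile acid receptor Nr1h4 (-0.97), Nfe2l2 (-0.65) and Hnf4a (-0.43) fell, and only Hnf4a was lost with an array left out (DMSO mouse 4 or 5, adjusted p up to 0.0754).
With AM251 before IDFP, Ppargc1b and Nr1d1 were lower than with IDFP alone (-1.51 and -1.80) and Hnf4a was higher (0.46, lost in 6 of 19 fits, adjusted p up to 0.0725). Ppargc1a differed by -0.11 there (adjusted p = 0.804), and compared with DMSO it was higher in AM251/IDFP-treated mice by 0.79 (adjusted p = 0.0349, lost in 8 of 19 fits, up to 0.0902), along with Foxo1 (0.58, lost in 4 of 19). Nr1h4 and Hdac3 were lower (-0.68 and -0.30), and the call of Hdac3 was lost without AM251/IDFP mouse 3 (adjusted p = 0.0577). Nr1i3, which encodes CAR, passed in none, with 0.31, -0.69 (adjusted p = 0.0731) and -0.38. Nrf1, whose motif stands in the Alas1 window printed above, also passed in none, with -0.33, 0.31 and -0.01.

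Within groups of at least 6 mice, Alas1 was set against Nr1i3, Ppargc1a, Nr1d1, Cyp2b10 and Hmox1, which made 10 relations, and none passed the adjustment over these 10 relations in the exact permutation test. The smallest p was with Hmox1, the inducible heme oxygenase, in DMSO mice (Pearson's r = 0.916, exact p = 0.0111, adjusted p = 0.111, Spearman's rho = 0.829, exact p = 0.0583, n = 6). Without the 2 mice farthest from the median of Hmox1, r was 0.881. In IDFP mice the same relation had r = 0.560 (exact p = 0.135) and rho = 0.762 (exact p = 0.0368, adjusted p = 0.194, n = 8). Nr1i3 followed with r = 0.830 in DMSO mice (exact p = 0.0486, adjusted p = 0.162, rho = 0.829, n = 6) and 0.713 in IDFP mice (exact p = 0.0323, adjusted p = 0.162, rho = 0.667, n = 8), and r was 0.813 and 0.515 without the 2 farthest mice. For Ppargc1a, r was 0.684 in DMSO mice (exact p = 0.131, n = 6) and 0.249 in IDFP mice (exact p = 0.536, n = 8). Without the 2 mice farthest from the median of Ppargc1a, these values were -0.063 and -0.162. The 5 AM251/IDFP-treated mice were too few for such a test, and as a description r with Alas1 was -0.500 for Hmox1, 0.921 for Nr1i3 and 0.947 for Ppargc1a in them, so that Hmox1 had the opposite sign there. With Cyp2b10 the relation was not steady, as r was 0.670 in DMSO and 0.0257 in IDFP mice, and -0.635 and 0.710 without the 2 farthest mice.

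Of the genes of heme breakdown and transport, 3, 2 and 1 of 13 were called in the comparisons in the same order, beside the shares of 16.3%, 10.8% and 9.86% over all genes. Hmox1 passed in none of the comparisons (-0.20, 0.56 and 0.36, adjusted p = 0.729, 0.342 and 0.598). Blvra, the reductase that turns biliverdin into bilirubin, fell by 0.31 with IDFP and by 0.48 with AM251/IDFP, both vs. DMSO (adjusted p = 0.0150 and 0.00528). The transporter Flvcr2 rose by 0.78 with IDFP and fell by 1.25 for AM251/IDFP vs. IDFP (adjusted p = 0.00440 and 0.000266). Haptoglobin (Hp), which binds free hemoglobin, fell by 0.56 with IDFP and was higher by 0.57 for AM251/IDFP vs. IDFP, calls lost in 2 (without DMSO mouse 4 or 5) and 13 of 19 fits, with adjusted p up to 0.0662 and 0.0952. Of 14 tested genes for mitochondrial steps around the pathway, the iron-sulfur glutaredoxin Glrx5 rose by 0.39 with IDFP (lost without DMSO mouse 4 or 5, adjusted p up to 0.0607), 0 were called for AM251/IDFP vs. IDFP, and the carrier Slc25a39 rose by 0.40 for AM251/IDFP vs. DMSO, a call lost in 6 of 19 fits (adjusted p up to 0.104).

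The genes whose signal was most like that of Alas1 over the 19 arrays were Hspa2 (r = 0.872, and 0.818 after subtracting group means), Gde1 (0.859 and 0.760) and Mfsd2a (0.857 and 0.830). For Alad they were Snapin (0.850 and 0.713), Pgls (0.841 and 0.777) and Elovl1 (0.815 and 0.586). These values are descriptions over arrays that share their normalization. For AM251/IDFP vs. DMSO, the log2 difference was 1.92 for Hspa2, 0.74 for Gde1 and 2.37 for Mfsd2a beside 1.20 for Alas1, and -0.48 for Snapin, -0.50 for Pgls and -0.52 for Elovl1 beside -0.53 for Alad. Since these genes were chosen for their likeness over all groups, a difference of the same sign follows from the choice.

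Some markers of other cells differed in the same comparisons as these genes. Beside the higher Alas1 and lower Alad of AM251/IDFP vs. DMSO, 3 of 5 tested neutrophil markers rose (S100a8, S100a9 and Retnlg, by 1.46, 1.36 and 1.37 on the log2 scale, with S100a9 lost without DMSO mouse 3 or 4), and their summed signal was 610 to 1443 in DMSO, 901 to 1618 in IDFP and 1341 to 6872 in AM251/IDFP mice. Without AM251/IDFP mouse 3, the highest sum of that group was 2039. With an array left out, the log2 differences ranged from 1.01 to 1.65 for S100a8, 0.90 to 1.59 for S100a9 and 1.10 to 1.52 for Retnlg. The neutrophil markers Camp, Mpo, Elane and Cxcr2 were not detected. Beside the lower Alad of AM251/IDFP vs. IDFP, 2 of 9 tested Kupffer cell markers fell (Clec4f and Timd4, both by 0.42, lost in 13 and 7 of 19 fits), with summed signals of 4684 to 6758 in AM251/IDFP and 5264 to 7839 in IDFP mice. Marco (0.66, limma adjusted p = 0.0619, not called) and C1qb (0.01) went the other way, and the median log2 difference of the 9 was -0.14. Of 17 tested hepatocyte markers, only Tat was called, which rose by 1.60 for AM251/IDFP vs. DMSO, and their summed signals overlapped (277013 to 291266 in DMSO, 263931 to 293048 in IDFP and 271692 to 290819 in AM251/IDFP mice). The part of these cells in the results was not tested.

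**Figure D4:**
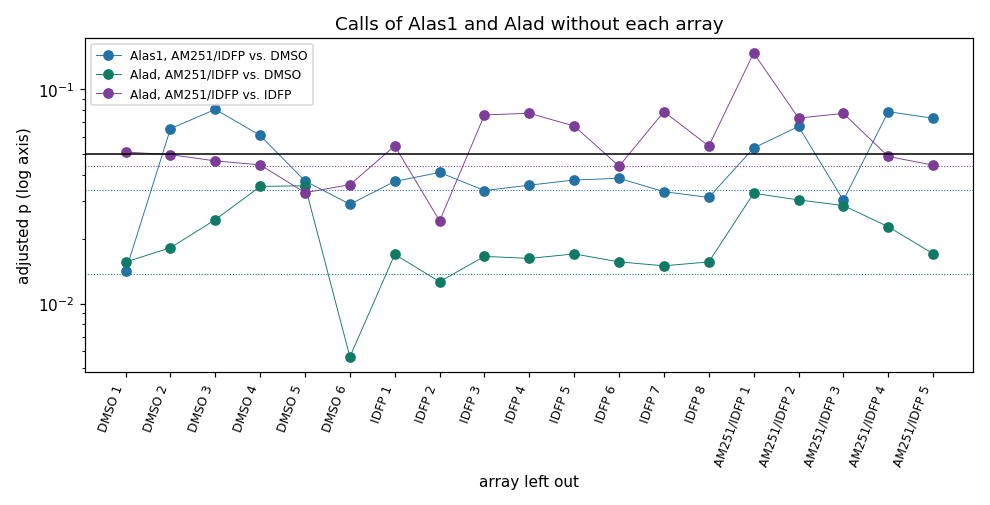
Adjusted p (log axis) of the called differences of Alas1 and Alad when each array in turn is left out; the black line marks 0.05 and the dotted lines mark the value with all 19 arrays. Alad in AM251/IDFP vs. DMSO stays under the line throughout, up to 0.0355, whereas Alas1 crosses it for 7 arrays and Alad vs. IDFP for 10.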

How the data were processed

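Hepatic RNA of 19 mice was measured on 1-colour Illumina MouseRef-8 v2.0 arrays. The authors deposited intensities from BeadStudio 3.2, after its quantile normalization and subtraction of background, so that 30.1% are below 0. A table of 38 columns that was not normalized was not used, since its column names match no sample. Of 25697 probes, 23978 had 1 gene in the platform annotation, 0 had several and 1719 had none. Symbols were checked against RefSeq GRCm38.p6 (23962 probes matched, 0 changed).

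Values were corrected with normexp (limma 3.58.1, R 4.3.3, no control probes, offset of 16), log2 transformed and then quantile normalized between arrays. A probe was detected above 1.64 times the root mean square of the negative values (17.4 to 17.5 units). A gene entered the tests when detected on the majority of arrays of any group, through its brightest detected probe. The 3 groups were fitted together with lmFit and eBayes, with Benjamini-Hochberg adjustment over 9352 genes and a threshold of 0.05. Exact permutation tests of group differences were two-sided, over 21 values, and were not adjusted. Those of the relations of Alas1 within groups were also two-sided, with Benjamini-Hochberg adjustment over 10 relations. The group fit and its adjustment were tested on simulated log2 signals, and the steps before the fit were not. Python 3.11.15, numpy 2.4.6 and matplotlib 3.10.9 were used for plots.

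The members and gene lists were chosen with earlier results of these data known. Named genes were all members, up to 4 called genes of each list in a comparison, Hmox1, Uros, Nr1i3, Ppargc1a, Nr1d1 and Cyp2b10, and the 3 genes most like each called member. Another gene that the rule names is not reported here. Nrf1, the motifs, and the Foxo1 and Hnf4a values for IDFP vs. DMSO, and the 10 relations of Alas1 within groups, were added after values had been seen. The number of arrays limits the precision.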

Additional observations from a re-analysis of the deposited data

Results flagged for a closer look

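Among 21 groups of signals (7 genes in 3 treatments), 1 held a mouse far from the others. AM251/IDFP mouse 1 had an Alad signal of 5300, and the nearest mouse of its group had 6852, a gap that makes up 0.722 of the range of the group where 0.71 is the critical value for 5 mice. Chance alone gives about 1 such group in 20. Without this mouse, Alad remained lower than in DMSO mice (-0.44, adjusted p = 0.0327), but the call against IDFP was lost (-0.29, adjusted p = 0.148).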

How the results depend on the processing

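Each log2 difference was recomputed under 10 other settings and without each of the 19 arrays. Of these values, 560 kept their direction and their side of the threshold, 8 passed it newly, 22 lost it and 19 turned in sign. The count of called members for IDFP vs. DMSO went from 0 to 1 with an offset of 50 (Urod, adjusted p = 0.0345) and to 1 with an intensity trend and robust prior (Urod, 0.0411), and was 0 to 2 with an array left out. For AM251/IDFP vs. IDFP it went from 1 to 0 with a floor of 10 units (Alad, 0.0615), to 0 with no detection filter (0.0756), to 0 with the replicate number as a block (0.0508) and to 2 in a fit of both groups alone (Alas1 passed, 0.0457), and was 0 to 2 with an array left out. For AM251/IDFP vs. DMSO it went from 2 to 1 in a fit of both groups alone (Alas1, 0.0643) and to 1 with the trend and robust prior (Alas1, 0.0532), and was 1 to 3 with an array left out. Alad was called for AM251/IDFP vs. DMSO under all 10 other settings. Why calls were lost was not tested.

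Turned signs were all in values near 0. Cpox for AM251/IDFP vs. IDFP was 0.028 with array weights and 0.087 with the replicate block. With an array left out, the ranges were -0.093 to 0.019 for Ppox in IDFP vs. DMSO, -0.20 to 0.13 for Alas2, -0.030 to 0.0025 for Urod, -0.099 to 0.068 for Cpox and -0.041 to 0.21 for Fech in AM251/IDFP vs. IDFP, and -0.023 to 0.10 for Ppox in AM251/IDFP vs. DMSO.

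Whether replicate numbers pair the mice was not settled. The deviations of 16 same-numbered pairs correlated at -0.193 to 0.265 (5 over 0.1), and pairs with different numbers were not set beside them. With the block, Alas1 in IDFP vs. DMSO was 0.56 in place of 0.33 (adjusted p = 0.243), and all genes called for AM251/IDFP vs. IDFP went from 1010 to 521, and without AM251/IDFP mouse 3 to 662. For AM251/IDFP vs. DMSO they went from 922 to 450 in a fit of both groups alone and to as few as 438 with an array left out. The chip as a block was not run, since no column name ties a mouse to its chip.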
